A study of Mus musculus with 3 samples.

Results

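Among the neurons sorted for EYFP from the hindbrain of *Glp1r*EYFP mice, the neurons with transcripts of *Pkd2l1* are described here. They were chosen on their own counts of unique molecular identifiers (UMIs, each taken as 1 captured transcript). A barcode was taken where it held at least 3000 UMIs, at most 20% of them mitochondrial, at least 1 UMI of *Syt1*, *Snap25* and *Pkd2l1* and no UMI of *Olig1* or *Aqp4*. This gave 135 of the 194 neurons that met the same conditions with or without *Pkd2l1*, out of 8082 barcodes of that size in the whole study. The other 59 neurons, which held 0 UMIs of *Pkd2l1*, are called comparison neurons below.

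The study was about neurons with the receptor of the gut hormone GIP, and set hindbrain neurons labeled through the GLP-1 receptor gene *Glp1r* beside them. It measured EYFP-sorted cells by single-cell RNA sequencing with the 10x Genomics 3′ kit, version 3, in 2 libraries of genotype *Glp1r*EYFP and 1 of genotype *Gipr*EYFP. Each library was made from brain stem sections of 4 to 6 male mice that were 4 to 6 weeks old, and the labels name no treatment. All groups carry the EYFP reporter. The sources used here do not give the driver of the reporter in *Glp1r*EYFP mice, nor whether the 2 replicates came from separate pools of mice.

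Neurons that express *Pkd2l1* line the central canal and the ventricles of the brain stem and are known as cerebrospinal fluid-contacting neurons. They are GABAergic, and each sends a short process with a bundle of microvilli into the fluid. The channel protein encoded by *Pkd2l1*, a polycystin that opens to changes in pH and to bending of the membrane, is their established marker. In the embryo they arise late from the ventral neural tube under factors of the GATA family.

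The *Glp1r*EYFP libraries held 27277448 UMIs (replicate 1) and 13568994 UMIs (replicate 2). In replicate 1, 77 of 97 neurons were positive for *Pkd2l1* (79.4%; exact Clopper-Pearson 95% interval, 70.0% to 86.9%). In replicate 2, 58 of 97 were positive (59.8%; interval, 49.3% to 69.6%). The intervals cover counting error only, and with 2 libraries the difference between them was not tested. The positive neurons had medians of 13539 and 15091 UMIs and of 4302 and 4468.5 genes in replicates 1 and 2. The comparison neurons were deeper, with medians of 22507 and 17618 UMIs. Counts of 0 are thus better resolved per cell in the comparison neurons, while over a whole class 3 UMIs corresponded to 2.57 and 3.5 CPM (a class's UMIs of a gene scaled to a total of 1e6) in the positive neurons and to 5.07 and 3.66 CPM in the comparison neurons. No neuron barcode was shared between any 2 of the libraries, and 3 and 2 of the other barcodes of at least 3000 UMIs were shared with the *Gipr*EYFP library.

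Some barcodes stood apart from the rest. Among the 20 comparison neurons of replicate 1, a barcode of 147309 UMIs held 24.9% of the UMIs of that class, 40395 UMIs of *Ttr* and 182 of *Folr1*, both genes of the choroid plexus epithelium. Another comparison barcode of that library held 63597 UMIs. Among the positive neurons of replicate 1, barcodes of 59992 and 55621 UMIs were the largest, and the latter carried 71 UMIs of *Ccdc153* and 50 of *Tmem212*, which mark ependymal cells. No doublet caller was run, and whether these barcodes hold more than 1 cell was not tested. Barcodes above 50000 UMIs were these 4, all in replicate 1. Without them, 11 of the 243 list and called genes that were recomputed changed the direction of their replicate 1 ratio, none of them among the 177 called genes, and the ratios of 100 moved by more than 1.5-fold. For the list genes discussed below, the replicate 1 values without these barcodes are given where the direction or the side of 4-fold changed or the ratio moved that far.

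A positive neuron held a median of 11 UMIs of *Pkd2l1* in replicate 1 (range, 1 to 26) and of 12 UMIs in replicate 2 (range, 1 to 32). Oligodendrocytes (ODs) were read beside the neurons, and the source of their *Pkd2l1* UMIs, free RNA or other, was not tested. At least 1 UMI of *Pkd2l1* was found in 20.6% of 355 OD barcodes in replicate 1 and in 23.0% of 183 in replicate 2, at medians of 11895 and 11047 UMIs per barcode. At least 2 UMIs were found in only 18 and 12 of these OD barcodes. A membership that rests on 1 UMI is therefore not set apart from ODs by count, and 10 or more UMIs were found in 44 and 35 of the positive neurons. In the *Gipr*EYFP library 20.9% of 752 ODs held the gene, with empty droplets at 22.7 CPM. Of its 74 neurons, 67 held 0 UMIs and 7 held at least 10, so that the share in ODs need not be that in neurons. Among barcodes of at least 3000 UMIs that did not meet the conditions for neurons, 5 and 1 also had 10 or more UMIs of *Pkd2l1* (at most 16 and 19), and empty droplets held it at 73.8 and 159 CPM. The plot of *Pkd2l1* UMIs per barcode shows the separation.

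**Figure D1:**
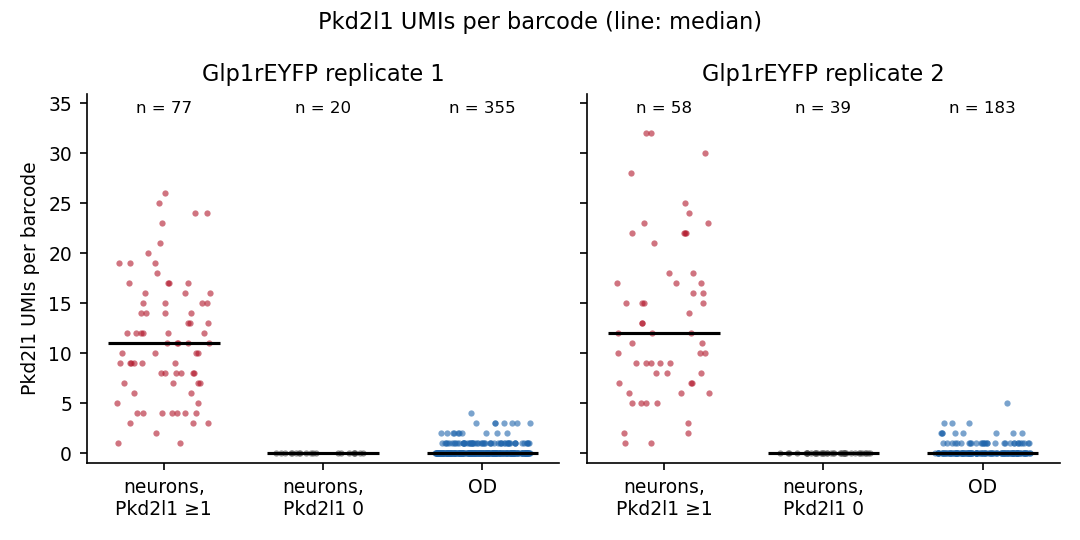
UMIs of *Pkd2l1* in each barcode (y axis) for neurons with at least 1 UMI of the gene, comparison neurons with 0 UMIs and ODs, in the 2 *Glp1r*EYFP libraries; points are barcodes, spread sideways at random, and lines are medians. The medians of the positive neurons are 11 and 12 UMIs, while 20.6% and 23.0% of the ODs hold any.

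At the threshold itself, 2 neurons of each library held exactly 1 UMI of *Pkd2l1*, and 1 and 2 neurons held exactly 2 UMIs. All 4 neurons with 1 UMI carried *Nefl*, a neurofilament gene, at 7 and 26 UMIs in replicate 1 and at 10 and 4 UMIs in replicate 2. No positive neuron with 3 or more UMIs of *Pkd2l1* had a UMI of *Nefl* (0 of 74 and 0 of 54). *Nkx6-1* was found in 73 of those 74 and 53 of those 54 neurons, and *Pkd1l2*, *Espn* and *Nkx6-1* together in 59 and 45 of them. Of the comparison neurons just outside the threshold, 16 of 20 and 31 of 39 had a UMI of *Nefl*, and 0 had all 3 of the other genes. By *Nkx6-1*, which the selection did not read, the label thus held for nearly all members, while the 3 genes together were found in fewer. Of the 4 neurons with 1 UMI, 2 lacked all of *Pkd1l2*, *Espn* and *Nkx6-1*. The barcode of 59992 UMIs had 1 UMI of *Pkd1l2*, and the neuron of 23136 UMIs had 1 UMI each of *Espn* and *Nkx6-1*. In the other direction, a comparison neuron of replicate 2 with 8193 UMIs, singled out after its values were seen, held 4 UMIs of *Espn*, 2 of *Nkx6-1*, 2 of *Gata2*, 1 of *Gata3* and 2 of *Insm1*.

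To describe the positive neurons, UMIs were summed over the neurons of each class and library, scaled to CPM and compared within each library. A gene was called when its level differed by at least 4-fold in both libraries, with at least 20 UMIs and detection in 20% of neurons in the higher class and a level at least 2 times that of empty droplets. Counts of 0 to 2 UMIs entered this ratio as 3 UMIs. No p-values are given, since the neurons were chosen by a gene of the same counts and neurons of 1 library are not replicates. Of 1927 genes that could be called, 75 (3.89%) were higher and 102 (5.29%) were lower in positive neurons; the 75 include *Pkd2l1*, whose ratio the selection fixed. The median of all 1927 genes was 0.06 on the log2 scale in replicate 1 and -0.22 in replicate 2. Replicate 1 alone gave 149 higher genes and replicate 2 alone gave 117, so that the 75 shared genes made up 50.3% and 64.1% of these lists. For lower genes the libraries alone gave 158 and 328, of which the 102 shared genes made up 64.6% and 31.1%. Most genes could pass the condition on abundance through a single class: 70 of the 75 could be called only as higher and all 102 only as lower, so that counts and medians over the callable genes of a list are descriptions and support nothing. Without the 4 barcodes above 50000 UMIs, 67 genes were higher and 134 were lower, and 64 and 89 of the original genes were among them. With the mean over neurons of each neuron's CPM in place of the sum, 67 were higher and 162 were lower, so that 29.3% of the calls were higher in place of 42.4%. At an equal depth of 3000 UMIs per neuron, detection differed in the same direction as the level for all 75 and 102 genes in both libraries, which is a description, since the calls used the same counts.

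**Figure D2:**
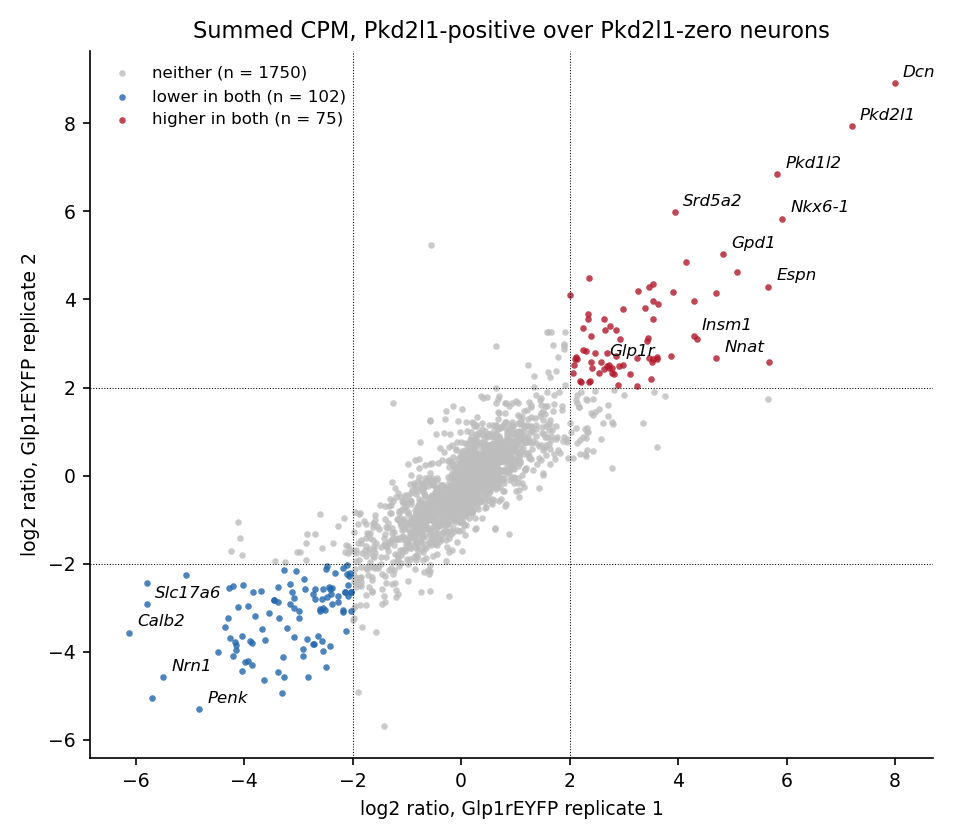
Log2 ratio of summed CPM, positive over comparison neurons, in replicate 1 (x axis) and replicate 2 (y axis) for the 1927 genes that could be called; red points are the 75 genes higher and blue points the 102 genes lower by at least 4-fold in both libraries, and dotted lines mark 4-fold. *Dcn* and *Pkd2l1* lie farthest out, the latter because it defined the classes.

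Polycystins and other sensory channels came first by role. *Pkd1l2*, which encodes a large receptor-like polycystin of the family whose members pair with channel subunits, reached 288 CPM in replicate 1 and 419 CPM in replicate 2 in the positive neurons. It had no UMI in the comparison neurons of either library, so that it was at least 56.8-fold and 115-fold higher. It was detected in 81.8% and 86.2% of the positive neurons, in 0% and 0.546% of ODs, and at 7.23 and 10.5 CPM in empty droplets. Of the 8 polycystin genes, only *Pkd2l1* and *Pkd1l2* were abundant enough to be called. *Pkd1l3*, the partner of *Pkd2l1* in taste cells, had 3.42 and 2.34 CPM in the positive neurons, and *Pkd1l1* and *Pkdrej* had 0 UMIs in both classes of both libraries. *Pkd1* and *Pkd2* were at or below 36.8 CPM in positive neurons and at 155.5 and 158 CPM (*Pkd1*) and 30.0 and 35.1 CPM (*Pkd2*) in empty droplets.

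Among 14 other channels and receptors of acid, pressure and ATP, 2 could be called and *Asic4* was higher. This member of the acid-sensing channel family had 57.3 and 56.0 CPM in positive neurons against 5.07 and 12.2 CPM in comparison neurons, ratios of 11.3 (counting interval, 3.70 to 56.2, with 3 UMIs in the comparison neurons) and 4.6. *Asic1*, whose product forms proton-gated channels, was found in 67.5% and 67.2% of positive neurons at 70.1 and 74.7 CPM, with ratios of 2.96 and 1.39 that did not reach 4-fold. The mechanosensitive channel genes *Piezo1* and *Piezo2* had at most 2.57 CPM, and *P2rx2*, *Otop1* and *Trpv1* had 0 UMIs in the positive neurons of both libraries, where 3 UMIs would be 2.57 and 3.5 CPM.

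*Espn*, which encodes the actin-bundling protein espin of microvilli and hair-cell stereocilia, had 257 and 311 CPM in positive neurons against 3.38 and 15.8 CPM in comparison neurons. The ratios were 50.6 and 19.6, with 2 and 13 UMIs in the comparison neurons (counting intervals, 20.8 to 630 and 11.3 to 37.3). At 3000 UMIs per neuron, 51.4% and 54.1% of positive neurons would carry a UMI against 0.647% and 6.08% of comparison neurons. Of the 25 stereocilia genes listed, 5 could be called and only *Espn* was higher, the median log2 ratio of the 5 being 0.38 and 1.06. *Eps8*, which caps actin filaments, had ratios of 8.01 and 3.58 and so passed in replicate 1 alone. *Myo3b*, a myosin that carries espins to the tips of actin protrusions, had 5.99 and 24.5 CPM against 0 and 1.22 CPM, with 7 and 21 UMIs in the positive neurons. Of the genes of the hair-cell transduction complex, *Tmc1* and *Tmc2* had 0 UMIs in positive neurons, whereas *Cib2*, *Tmie* and *Lhfpl5* were detected and not called. *Cib2* was at 134 and 139 CPM against 123 and 98.8 CPM, *Tmie* at 76.97 and 104 CPM against 59.2 and 49.98 CPM, and *Lhfpl5* at 66.7 and 65.4 CPM against 76.1 and 65.8 CPM.

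Genes of cilia gave no call. Of 18 listed, 2 could be called, and *Dnah8*, an axonemal dynein heavy chain, was at 99.2 and 130 CPM with ratios of 2.55 and 4.83. *Rsph1*, of the radial spoke, had ratios of 1.57 and 7.66 (3 UMIs in the comparison neurons of replicate 2; counting interval, 2.33 to 39.7), and without the barcodes above 50000 UMIs the former was 3.25. *Foxj1*, the factor that turns on motile cilia genes, was found in 5.19% and 1.72% of positive neurons.

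Several transcription factors of this lineage were higher in the positive neurons. Of 16 factors, 8 could be called, of which 6 were higher and none was lower. *Nkx6-1*, a homeodomain factor of the ventral neural tube, was found in 96.1% and 96.6% of positive neurons at 305 and 278 CPM, against 3.38 and 4.88 CPM in comparison neurons. Its ratios were 60.2 and 57.0, with 2 and 4 UMIs in the comparison neurons (counting intervals, 24.8 to 749 and 22.0 to 211). *Insm1*, a zinc finger factor of late progenitors and endocrine cells, was found in 90.9% and 93.1% of positive neurons at 231 and 240.5 CPM against 11.8 and 26.8 CPM. *Gata2* (145 and 111 CPM against 11.8 and 17.1 CPM) and *Gata3* (172 and 153 CPM against 23.7 and 23.2 CPM), which specify GABAergic neurons of the ventral cord and brain stem, were found together in 58 of 77 and 35 of 58 positive neurons. In comparison neurons they were found together in 2 of 20 and 3 of 39. *Sox2*, a factor of neural progenitors, had ratios of 7.43 and 4.20, and it was also found in 50.7% and 51.9% of ODs. *Tal1* and *Sox1* passed 4-fold in replicate 1 (13.5 and 11.7) and not in replicate 2 (3.48 and 3.75).

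Other factors of the list were rare. *Foxa2* was found in 10.4% and 8.62% of positive neurons and in 0 of 20 and 0 of 39 comparison neurons, and *Tal2* in 10.4% and 15.5%. *Nkx2-2* was found in 7.79% and 3.45%, and *Nkx2-9* had 0 UMIs. Of the 14 factors listed for other hindbrain neurons, none was abundant enough in both libraries to be called. *Lmx1b* and *Tlx3* had 0 UMIs in positive neurons. *Zfhx3*, at 117 and 91.1 CPM in positive neurons, was at 205 and 138 CPM in empty droplets.

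The positive neurons carried the genes of GABA release at levels close to those of the comparison neurons, which were a mixture. The vesicular inhibitory transporter gene *Slc32a1* was found in 98.7% and 98.3% of positive neurons against 55% and 61.5% of comparison neurons. Its summed levels were 344 and 358 CPM against 221 and 315 CPM, ratios of 1.55 and 1.14. Without the barcodes above 50000 UMIs the replicate 1 ratio was 1.03 for *Slc32a1*, 0.896 for *Gad1* in place of 1.36 and 0.938 for *Gad2* in place of 1.53. *Gad2*, a GABA-synthesizing enzyme gene, was found in all positive neurons of both libraries, and *Gad1* in 90.9% and 93.1%. *Slc17a6*, the glutamate transporter gene of excitatory brain stem neurons, had 0 UMIs in the 77 positive neurons of replicate 1 and 26 UMIs in replicate 2, all of them in 1 neuron with 1 UMI of *Pkd2l1*. It had 142 and 228 CPM in the comparison neurons, of which 8 of 20 and 12 of 39 carried it. The glycine transporter gene *Slc6a5* was lower as well, at 10.3 and 10.5 CPM against 98 and 46.3 CPM. In the positive neurons, 11 of its 12 UMIs in replicate 1 and all 9 in replicate 2 lay in 1 neuron of each library. These were the barcodes of 59992 and 27521 UMIs, each with 1 UMI of *Pkd2l1*. Without the barcodes above 50000 UMIs it was at 0.949 against 152 CPM in replicate 1, and *Slc17a6* was at 0 against 99.8 CPM. Of the 17 transmitter genes listed, 7 could be called, none was higher, and these 2 were lower. *Ddc*, which decarboxylates aromatic amino acids, was found in 67.5% and 81.0% of positive neurons at 129 and 172 CPM (ratios, 2.73 and 3.27), while *Th*, *Dbh*, *Tph2* and *Slc6a4* had at most 1.71 CPM.

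**Figure D3:**
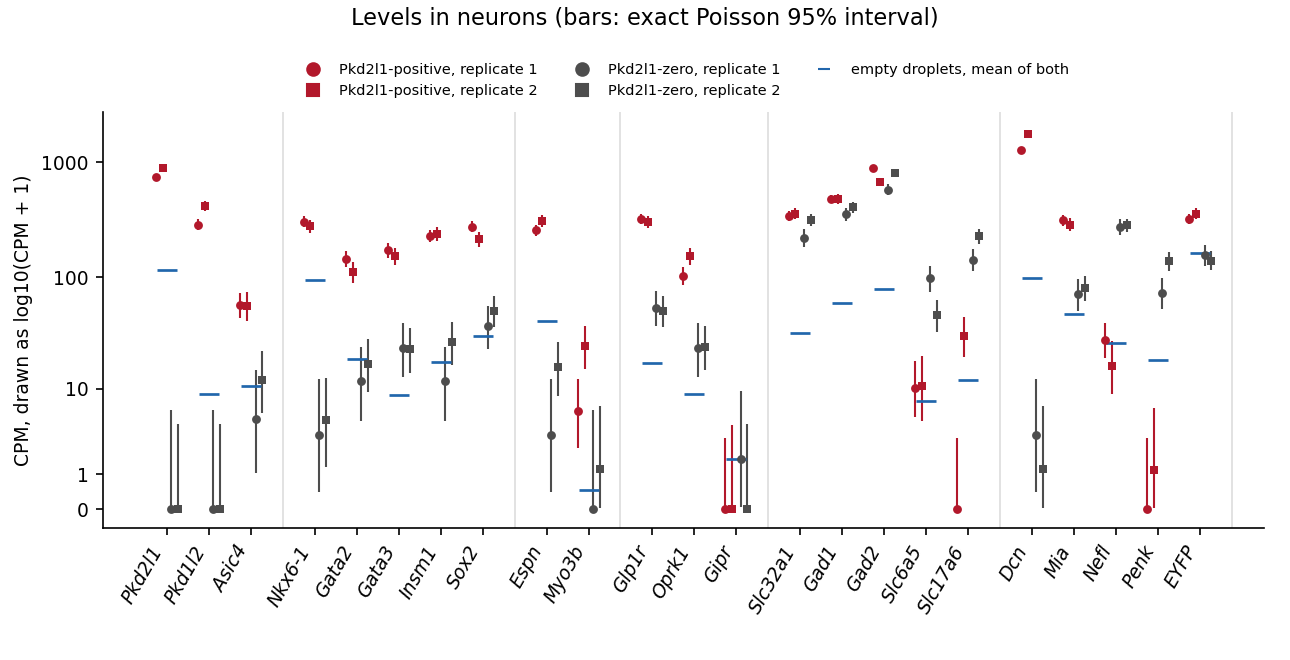
Summed level of named genes in CPM, drawn as log10(CPM + 1) (y axis), in positive neurons (red) and comparison neurons (gray) of replicate 1 (circles) and replicate 2 (squares), with exact Poisson 95% intervals as bars; the blue dash is the mean level in the empty droplets of both libraries. *Pkd1l2*, *Espn* and *Nkx6-1* stand far above the comparison neurons, *Slc32a1*, *Gad1* and *Gad2* lie close together, and *Slc17a6*, *Nefl* and *Penk* are lower.

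*Glp1r* itself was higher in the positive neurons. It was found in 94.8% and 87.9% of them, against 25% and 33.3% of comparison neurons and 0% of the ODs of both libraries. The levels were 323 and 306 CPM against 54.1 and 51.2 CPM, ratios of 5.98 (counting interval, 4.16 to 8.86) and 5.97 (4.30 to 8.48). Single positive neurons ranged from 0 to 1055 CPM in replicate 1 (median, 316) and from 0 to 1349 CPM in replicate 2 (median, 279.7), so that the classes overlapped cell by cell. *Gipr* had 0 UMIs in all 135 positive neurons and 1 UMI in the comparison neurons. The transcript of the EYFP reporter, on which the cells were sorted, was found in 98.7% and 98.3% of positive and in 85% and 82.1% of comparison neurons. Its levels were 324 and 358 CPM in positive neurons, 156 and 140 CPM in comparison neurons and 156 and 170 CPM in empty droplets. Markers of smooth muscle, by contrast, summed to 238 and 167 CPM in comparison neurons and to 26963 and 27758 CPM in empty droplets. A like level of EYFP in both therefore does not make it free RNA, and its source in comparison neurons was not tested.

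Of 26 peptide receptor genes, 3 could be called, and *Oprk1*, the κ-opioid receptor gene, was higher along with *Glp1r*. It had 103 and 153 CPM against 23.7 and 24.4 CPM, ratios of 4.37 and 6.27, but without the barcodes above 50000 UMIs the ratio in replicate 1 was 2.89. *Cckar*, a receptor of cholecystokinin, was found in 16.9% and 20.7% of positive neurons (13 and 17 UMIs) and in 0% and 2.56% of comparison neurons. *Npy2r*, *Lepr*, *Gfral* and *Calcr* had 0 UMIs in positive neurons. *Drd1*, a dopamine receptor gene, was among the called genes outside the lists, at 35.1 and 24.5 CPM against 0 and 4.88 CPM, and so was *F2r*, a thrombin receptor gene found in 97.4% and 98.3% of positive neurons at 311 and 333 CPM against 15.2 and 39 CPM.

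Neuropeptide genes were sparse. Of 27 listed, 4 could be called, none was higher, and *Penk* and *Nppc* were lower, with median log2 ratios of -2.34 and -4.93 for the 4. Proenkephalin (*Penk*) had 0 and 1 UMIs in the positive neurons against 72.7 and 138 CPM in the comparison neurons, where 4 of 20 and 8 of 39 neurons carried it. Natriuretic peptide C (*Nppc*) had 5.13 and 1.17 CPM against 49.0 and 82.9 CPM. In replicate 1 without the barcodes above 50000 UMIs it was at 0.949 against 36.8 CPM, fewer than the 20 UMIs that a call required. Prepronociceptin (*Pnoc*) was found in 36.4% and 53.4% of positive neurons at 74.4 and 87.6 CPM, with ratios of 1.26 and 1.44. The barcode of 59992 UMIs, with 1 UMI of *Pkd2l1*, held 40 of its 87 UMIs in replicate 1, and a neuron with 1 UMI of *Pkd2l1* held 18 of its 75 UMIs in replicate 2. Without the barcodes above 50000 UMIs the replicate 1 ratio had the opposite direction (0.475, 43.7 against 91.9 CPM). Somatostatin, neuropeptide Y, galanin and cocaine- and amphetamine-regulated transcript (*Sst*, *Npy*, *Gal*, *Cartpt*) were each found in at most 3.45% of positive neurons. Of these, *Sst* had ratios of 0.372 (0.244 without the barcodes above 50000 UMIs) and 0.0195. In replicate 1, 23 of its 25 UMIs in positive neurons lay in the neuron of 12862 UMIs, which held 1 UMI of *Pkd2l1*. *Pomc* was found in 35.1% and 36.2% at 28.2 and 32.7 CPM, below its 92.2 and 130 CPM in empty droplets. Of 11 genes of peptide processing and secretory granules, 8 could be called and none passed. *Pcsk1n*, the inhibitor of a prohormone convertase, was at 4809 and 8135 CPM against 1317 and 2726 CPM (ratios, 3.65 and 2.98). *Vgf*, a granule protein gene of active neurons, had ratios of 0.138 and 0.264 and so passed 4-fold in replicate 1 alone. The former ratio was 0.0723 without the barcodes above 50000 UMIs.

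Genes of mature neurons were split. Of 12 neuronal genes, 10 could be called, 0 were higher, and the neurofilament genes *Nefl* and *Nefm* were lower, with median log2 ratios of -0.57 and -0.995 for the 10. *Stmn2*, *Tubb3*, *Elavl3* and *Elavl4* differed by less than 1.5-fold in both libraries, although without the barcodes above 50000 UMIs the replicate 1 ratio of *Stmn2* was 0.800 in place of 1.08. *Nefl* then was at 6.64 against 357 CPM in replicate 1. *Snap25*, a synaptic vesicle fusion gene and part of the selection, was at 475.5 and 470.5 CPM against 1425 and 1991 CPM, and without these barcodes at 346 against 1734 CPM in replicate 1. *Rbfox3*, the gene of the NeuN antigen, was found in 48.1% and 36.2% of positive neurons against 60% and 71.8% of comparison neurons, with ratios of 0.594 and 0.368. *Dcx*, a gene of immature neurons, was found in 23.4% and 25.9% of positive against 30% and 28.2% of comparison neurons.

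Receptors and channels of fast signaling contributed 11 of the 102 lower calls. Over all 1927 callable genes 5.29% were lower, and all 102 could be called only as lower, so that the counts are descriptions. Of 37 transmitter receptor genes, 22 could be called, none was higher and 8 were lower, with median log2 ratios of -1.21 and -1.91. Among these were the GABA-A subunit genes *Gabra3* and *Gabrg3*, the glutamate receptor subunit genes *Grin2a*, *Grin2b* and *Grik2*, and the glycine receptor gene *Glra3*. *Grin2b* was at 13.7 and 16.3 CPM against 108 and 137 CPM. Without the barcodes above 50000 UMIs its replicate 1 ratio was 0.035 in place of 0.126, and those of *Gabra3*, *Gabrg3*, *Grin2a* and *Glra3* were lower still than with them, at 0.0434, 0.0471, 0.0452 and 0.0339. *Gabra4* had ratios of 2.83 (1.85 without these barcodes) and 2.77, *Gabra2* of 1.79 and 1.08 and *Gabrg1* of 1.57 and 1.42, and *Gria2* was found in 100% and 93.1% of positive neurons with ratios of 0.821 and 0.613. Of 28 voltage-gated and background channel genes, 18 could be called and 3 were lower, among them the potassium channel genes *Kcna2* (26.5 and 12.8 CPM against 115 and 149 CPM, and 16.1 against 108 CPM in replicate 1 without these barcodes) and *Kcnd2* (12 and 19.8 CPM against 101 and 135 CPM). The sodium channel gene *Scn9a* had ratios of 4.97 (3.70 without these barcodes) and 3.31 and detection in 85.7% and 69.0% of positive neurons, and *Scn1a* had ratios of 0.299 (0.154 without these barcodes) and 0.154. Of 10 calcium-binding protein genes, 5 could be called, and *Calb2* and *Hpca* were lower. Calretinin (*Calb2*) had 0 UMIs in replicate 1 and was found in 6.90% of positive neurons in replicate 2.

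Outside these lists, the genes with the largest differences had varied roles. Of the 15 genes with the largest smaller ratio, *Dcn*, which encodes the small matrix proteoglycan decorin, was first, at 1287 and 1768 CPM against 2 and 1 UMIs in comparison neurons. Its counting intervals were 105-fold to 3147-fold and 259.8-fold to 57303-fold. *Dcn* is also a gene of fibroblast-like cells of the meninges. *Lum* and *Col1a1*, the other genes listed for those cells, had 0 UMIs and 0 and 1 UMIs in positive neurons. *Dcn* was at 89.3 and 106 CPM in empty droplets and in 1.13% and 0.546% of ODs. *Gpd1*, a glycerol phosphate dehydrogenase gene, had ratios of 28.5 (3 UMIs in the comparison neurons; counting interval, 9.59 to 140) and 32.8, and was also found in 47.6% and 42.6% of ODs. *Pdzk1ip1*, which encodes a small membrane protein, had ratios of 33.9 and 24.8 with detection in 96.1% and 94.8% of positive neurons. *Abcc3*, an efflux transporter gene, was at least 17.7-fold higher in replicate 1 and had a ratio of 28.7 in replicate 2 (1 UMI in the comparison neurons; counting interval, 15.1 to 3442). *Srd5a2*, a steroid 5α-reductase gene, had 0 and 2 UMIs in comparison neurons and differed between the libraries in the positive neurons, at 77.8 and 231 CPM. *Cda* (cytidine deaminase), *Ppfibp1*, *Tnfaip2*, *Lancl3*, *Ube2l6* and *Lyl1*, a relative of *Tal1*, completed the 15 together with *Pkd1l2*, *Nkx6-1*, *Espn* and *Pkd2l1*, the last of which has its place by selection. *Clic5* was tied with *Lancl3* and *Ube2l6* at a smaller ratio of 11.6 and was left out only because the list ended at 15. *Lyl1* had 62.4 and 54.9 CPM against 1 and 3 UMIs (counting intervals, 6.42-fold to 1479-fold and 4.83-fold to 75.4-fold). *Zfpm1*, whose product binds GATA factors, was called as well, at 35.9 and 60.7 CPM against 3.38 and 12.2 CPM, and was also found in 44.8% and 28.4% of ODs. On the other side, the 10 genes with the largest reductions included *Penk*, *Nrn1*, *Irx2*, *Cdh7*, *C1ql3*, *Tafa1*, *Bdnf* and *Cntn5*. *Irx2*, a homeodomain factor gene, had 0 UMIs in the positive neurons of both libraries against 28 and 49 UMIs (23.6 CPM in replicate 1 without the barcodes above 50000 UMIs), and brain-derived neurotrophic factor (*Bdnf*) had 3 and 2 UMIs against 23 and 53.

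The positive neurons were not uniform. *Dcn* was found in 79.2% and 72.4% of them, but the 8 and 6 neurons with the most *Dcn* held 50.8% and 63.2% of its UMIs. Single neurons ranged from 0 to 153 UMIs of *Dcn* in replicate 1 and from 0 to 266 UMIs in replicate 2. *Mia*, a gene listed as an ependymal marker that had detection in 71.4% and 75.9% of positive neurons, varied the other way. Among neurons with 3 or more UMIs of *Pkd2l1*, Spearman's rho between the CPM of *Dcn* and *Mia* was -0.62 in replicate 1 (n = 74) and -0.44 in replicate 2 (n = 54), across neurons that share a library and a total. All 20 and all 13 neurons with 0 UMIs of *Mia* held *Dcn*, with a median of 52 and 87 UMIs. The 54 and 41 neurons with *Mia* had medians of 3 and 2 UMIs of *Dcn*. Depth was similar, at medians of 12930 and 15760 UMIs without and 14290 and 14820 UMIs with *Mia*. *Pkd2l1* was at 1061 and 1177 CPM in the neurons without *Mia* and at 710 and 907 CPM in those with it, and *Nkx6-1* at 302 and 306 CPM without and 330.5 and 298 CPM with it. *Pkd1l2* was higher without *Mia* in replicate 1 (532.5 against 237 CPM) and lower in replicate 2 (387 against 482 CPM). The split by *Mia* was chosen after the values had been seen, it is a description and not a cell type, and *Mia* was not called against comparison neurons (ratios, 4.42 and 3.57), where all 42 of its UMIs in replicate 1 lay in the barcode of 147309 UMIs. Without the barcodes above 50000 UMIs it was at 245 CPM against 0 UMIs in replicate 1, or at least 31.1-fold higher.

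**Figure D4:**
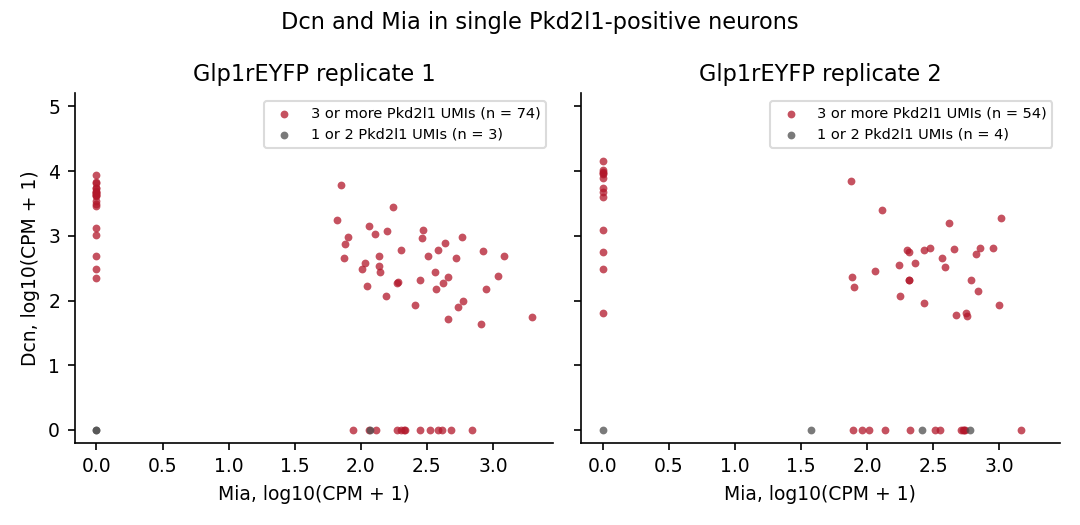
*Dcn* (y axis) against *Mia* (x axis) in single positive neurons of each library, as log10(CPM + 1); points are neurons, red with 3 or more UMIs of *Pkd2l1* (n = 74 and 54) and gray with 1 or 2 (n = 3 and 4). All 20 and 13 red points with no *Mia* lie above 0 for *Dcn*, while no gray point does.

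*Nnat*, an imprinted gene of developing neurons, was called higher (1141 and 569 CPM against 43.9 and 89.0 CPM). The barcode of 55621 UMIs alone held 490 of its UMIs, and without the barcodes above 50000 UMIs its ratio in replicate 1 was 11.7 in place of 26.0. *Pkd1l2* and *Pkd2l1* had a rho of 0.42 in replicate 1 and 0.57 in replicate 2 across neurons with 3 or more UMIs of *Pkd2l1*, *Pkd1l2* and *Espn* of 0.40 and 0.33, and *Pkd1l2* and *Dcn* of 0.43 and 0.28. These neurons share a library and were chosen on *Pkd2l1*. The map of single neurons shows that *Nkx6-1*, *Slc32a1* and *Glp1r* were found in most positive neurons, and *Dcn*, *Mia* and *Pnoc* in smaller shares.

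**Figure D5:**
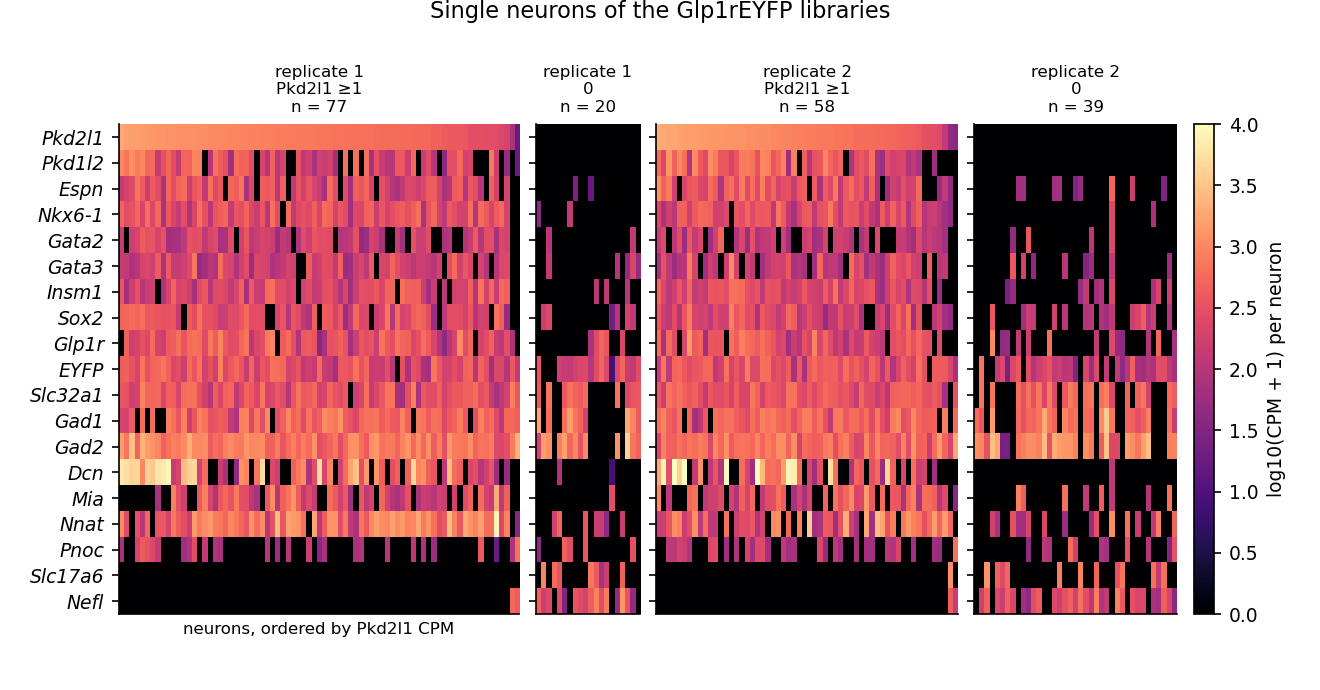
Level of 19 transcripts (rows) in every neuron (columns) of the 2 *Glp1r*EYFP libraries, as log10(CPM + 1) by color; neurons are ordered by *Pkd2l1* CPM within positive (n = 77 and 58) and comparison neurons (n = 20 and 39). The neurons at the right end of each positive block, with 1 UMI of *Pkd2l1*, carry *Nefl*.

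Genes of other cell types were read in the same neurons. Markers of ODs summed to 129 and 98.1 CPM in positive neurons, with *Olig1* at 0 by selection, against 135 and 116 CPM in comparison neurons and 55235 and 52702 CPM in ODs. Markers of smooth muscle were higher in positive than in comparison neurons (1675 and 787 CPM against 238 and 167 CPM, with none of 3 at 0), *Acta2* being the most abundant at 889 and 404 CPM. Empty droplets held 15339 and 16753 CPM of *Acta2*, and none of the 3 could be called. Microglial markers summed to 163 CPM in replicate 1, 137 CPM of it *C1qa* with 49, 53 and 55 UMIs in 3 neurons, and to 0 CPM in replicate 2. Ependymal markers other than *Mia* summed to 215 and 19.9 CPM in positive neurons, 37.2 and 7.32 CPM in comparison neurons and 258 and 262 CPM in empty droplets, with *Tmem212* and *Ccdc153* in 1 positive neuron of replicate 1 and 0 of replicate 2. Choroid plexus markers summed to 85.5 and 7.005 CPM, of which *Ttr* gave 79.5 and 7.005 CPM, against 6898 and 446 CPM of *Ttr* in empty droplets. Astrocyte markers summed to 40.2 and 4.67 CPM, led by *Gja1* and *Slc4a4*, with *Aqp4* at 0 by selection. Markers of endothelial cells, pericytes and OD precursors summed to at most 71.0 CPM in each library. Of 11 immediate early and stress genes, which papain dissociation can induce, none could be called above empty droplets, and *Fos* was at 307 and 259 CPM in positive neurons, 94.7 and 102 CPM in comparison neurons and 1828 and 1738 CPM in empty droplets. The part of these other transcripts in the results above was not tested.

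Because *Gata2* and *Gata3* were higher, the 250 bases before the start of each gene in RefSeq (build GRCm38.p6) were searched for the hexamers AGATAA or AGATAG or TGATAA or TGATAG on both strands. Such a match occurred in 11.5% of 52 windows of the higher genes (46 of 75 genes matched), in 19.2% of 104 windows of the lower genes (67 of 102) and in 26.5% of all 32851 windows. These shares are a description, since windows were not matched for base composition and sites farther away were not searched. Whether GATA factors act on these genes was not tested. Of the 15 genes with the largest ratios that were in the table, *Pkd1l2* had a match, and its window is shown for that reason. It lies at chr8:117082450-117082699 on the minus strand and is written 5′ to 3′ along that strand, with the match in capitals, 241 bases before the start.
Pkd1l2: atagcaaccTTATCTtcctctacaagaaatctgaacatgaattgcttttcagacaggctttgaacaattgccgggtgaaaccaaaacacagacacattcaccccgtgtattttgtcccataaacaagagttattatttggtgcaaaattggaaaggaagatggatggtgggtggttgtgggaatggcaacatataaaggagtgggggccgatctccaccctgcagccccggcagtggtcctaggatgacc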

How the data were processed

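EYFP-sorted hindbrain cells were measured by 10x Genomics 3′ RNA sequencing. The deposited values are raw UMI counts of 32533 genes, EYFP included, for every barcode, which the authors made without normalization or cell filtering. The submitters' processing notes name Cell Ranger 6.1.2 and build GRCm39, while the header of each matrix names Cell Ranger 4. The members, gene lists and rules were chosen with earlier results of these data known. UMIs were summed per class and library with Python 3.11.15, numpy 2.4.6, scipy 1.17.1 and pandas 2.3.3. Levels carry exact Poisson and shares exact Clopper-Pearson 95% intervals, and for ratios the interval was the exact one for the split of the summed count between classes; all cover counting error only. Empty droplets were barcodes of 1 to 100 UMIs. ODs were barcodes of at least 3000 UMIs with *Olig1* and *Mog* and without *Syt1* and *Snap25*. Shares at 3000 UMIs are expected values under sampling without replacement. The genes named are list genes, the 15 higher and 10 lower genes with the largest smaller change, and membership genes. A few others (*Drd1*, *F2r*, *Nnat*, *Zfpm1*, *Clic5*, *Clvs2*, *Aqp6*) were chosen after their values were seen. The rule of size was run on simulated Poisson counts with known changes. These had a common profile within each class, no free RNA and no spread between neurons beyond depth and counting. They therefore do not cover mixed classes or barcodes that stand apart. Where the floor of 3 UMIs was used, a class with 0 UMIs gives a bound. Some genes that met these rules are not reported here.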

Additional observations from a re-analysis of the deposited data

Results flagged for a closer look

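The *Gipr*EYFP library, which was not used to call genes above, also held neurons with *Pkd2l1*. The same selection gave 74 neurons, of which 7 had 10 to 40 UMIs of *Pkd2l1* (9.46%; exact Clopper-Pearson interval, 3.89% to 18.5%), and 67 had 0 UMIs. The 7 neurons shared no barcode with either *Glp1r*EYFP library. All 7 carried *Glp1r*, with 36 UMIs in all (263 CPM), whereas none of the other 67 neurons did, and empty droplets of that library were at 0.529 CPM. *Gipr* had 0 UMIs in the 7 neurons and was found in 28 of the other 67. EYFP was found in 6 of the 7 at 475 CPM, against 64 of the other 67 at 505 CPM and 244 CPM in empty droplets. *Pkd1l2*, *Espn*, *Nkx6-1*, *Insm1*, *Gata2* and *Slc32a1* were found in 7 of 7. Ratios over all called genes are not given for this library, since 3 UMIs over the 7 neurons correspond to 21.9 CPM and the ratios of sparse genes rest on that floor. With 1 library of this genotype there is no test.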

How the results depend on the processing

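Classes were compared within each library, and no test was run over the 2 libraries. Under all alternatives run, the numbers of positive neurons were 74 to 82 in replicate 1 and 54 to 59 in replicate 2, against 77 and 58. The alternatives changed conditions on UMIs, mitochondrial share, excluded genes and *Pkd2l1* UMIs. Only 3 and 4 members held 1 or 2 UMIs of *Pkd2l1*, so that its minimum could change little. The counts of 75 higher and 102 lower genes were less stable. Requiring at least 2 UMIs of *Pkd2l1* gave 158 lower genes, and so did at least 3 UMIs, with 102 of the original genes in both. The share of higher calls was then 32.8% in place of 42.4%, since the number of lower calls rose. A ratio of at least 2 gave 174 higher and 277 lower genes. Without a minimum of UMIs beyond the floor, 171 genes were lower. The mean over neurons of each neuron's CPM gave 67 higher and 162 lower genes (29.3% higher), and thinning each neuron to 3000 UMIs left 20 higher and 7 lower genes, since fewer genes then reached 20 UMIs. Each replicate on its own gave 117 to 149 higher and 158 to 328 lower genes. Size factors by the median of ratios shifted all genes by -0.02 and 0.11 on the log2 scale and gave 78 and 104 genes. On the mean log2 ratio of both libraries, 0 of the 177 called genes changed direction under 4 alternatives for their levels. For uncalled genes such changes were not counted, and they did occur. Without barcodes above 50000 UMIs, *Gad2* had ratios of 0.938 in replicate 1, in place of 1.53, and 0.837 in replicate 2. Many of the 243 genes moved beyond their standard deviation. These were 109 genes with the mean of each neuron's CPM and 94 without barcodes above 50000 UMIs. With at least 2 *Pkd2l1* UMIs they were 78, and with median-of-ratios size factors 11. In replicate 1 alone, 11 of the 243 genes, all uncalled, changed direction without barcodes above 50000 UMIs. The limits of 50000 UMIs per barcode and of 3 *Pkd2l1* UMIs were chosen after seeing the data. Among the higher genes that fell below 4-fold in replicate 1 under the former were *Oprk1*, *Clvs2* and *Aqp6*. With 20 comparison neurons in replicate 1, 0 neurons with a UMI allow a share of neurons with a UMI of up to 15%, which does not limit the share that expresses the gene.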
